A study of Rattus norvegicus with 16 samples.

Results

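The genes described here are 8 enzymes and carriers of gluconeogenesis (Pck1, Pck2, G6pc1, Fbp1, Pc, Slc37a4, Got1 and Mdh1) and Ppargc1a, the gene of the coactivator PGC-1alpha. They were chosen by gene symbol in the array's annotation, 9 of 22093 genes, and each had 1 probe set, whose identifier named the same chromosome as the GRCr8 gene table. Livers came from male rats of the RccHan Wistar strain, aged 7-8 weeks, that ate untreated feed or feed with 3000 ppm phenformin for 3 or 14 days. Phenformin is a biguanide, like metformin, and lowers blood glucose. Each of the 4 groups (control day 3, phenformin day 3, control day 14, phenformin day 14) held 4 arrays, called biological replicates in their titles, while the labels state 5 animals per group. Animals were housed in shared cages with food freely available, and the sources used here do not give cage mates, the hour of necropsy or whether the rats were fasted. Values are log2 of the deposited intensity, group values are means ± SD (n = 4), and changes are limma estimates, phenformin minus control, with 95% intervals. The threshold was 0.05 for limma p-values adjusted over all 22093 genes by the Benjamini-Hochberg method.

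Gluconeogenesis makes glucose from lactate, amino acids and glycerol, and the liver uses it to supply blood glucose between meals. Pyruvate carboxylase (Pc) makes oxaloacetate in mitochondria, malate or aspartate carries it to the cytosol, where Mdh1 and Got1 regenerate it, and PEPCK (Pck1 in the cytosol, Pck2 in mitochondria) turns it into phosphoenolpyruvate. Fructose-1,6-bisphosphatase (Fbp1) and glucose-6-phosphatase (G6pc1), fed by the transporter Slc37a4, complete the path. Glucagon, through cAMP and the factor CREB, raises transcription of Pck1, G6pc1 and Ppargc1a, and insulin lowers that of Pck1 and G6pc1, so these mRNAs are known to vary with feeding.

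The promoters of the 3 genes named above as raised by glucagon are shown. Together with Got1 these genes spread most between animals within this set (pooled SD 0.76 for Pck1, 0.72 for G6pc1, 0.59 for Got1 and 0.58 for Ppargc1a). The Got1 promoter, not shown, held none of the strings searched below, and a link between spread and promoter sequence was not tested. The promoters shown are RefSeq sequences of build GRCr8, from 250 bases before to 50 after the gene start. Capitals mark the 8 bases that match or most resemble the cAMP response element.
Pck1, chr3:182348322-182348621, plus strand: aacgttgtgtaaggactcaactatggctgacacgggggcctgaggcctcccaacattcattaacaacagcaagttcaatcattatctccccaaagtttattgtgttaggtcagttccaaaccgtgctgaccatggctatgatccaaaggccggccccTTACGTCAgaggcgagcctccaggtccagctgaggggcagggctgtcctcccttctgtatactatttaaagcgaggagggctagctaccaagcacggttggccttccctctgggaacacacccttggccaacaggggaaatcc
G6pc1, chr10:86807409-86807708, plus strand: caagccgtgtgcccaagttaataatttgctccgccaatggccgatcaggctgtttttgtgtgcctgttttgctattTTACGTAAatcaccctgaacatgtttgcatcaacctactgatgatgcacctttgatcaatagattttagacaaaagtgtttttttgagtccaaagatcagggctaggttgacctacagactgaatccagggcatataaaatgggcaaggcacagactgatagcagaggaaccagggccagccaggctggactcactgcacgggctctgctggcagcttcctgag
Ppargc1a, chr14:63634058-63634357, plus strand: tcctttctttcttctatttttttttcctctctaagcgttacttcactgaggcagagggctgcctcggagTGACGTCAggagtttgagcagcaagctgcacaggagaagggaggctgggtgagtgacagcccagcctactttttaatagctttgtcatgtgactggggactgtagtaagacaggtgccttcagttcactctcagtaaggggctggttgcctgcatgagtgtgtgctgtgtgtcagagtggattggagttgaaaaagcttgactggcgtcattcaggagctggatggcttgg
The full palindrome TGACGTCA was found in the Ppargc1a promoter and in 1.83% of 33469 RefSeq rat promoters of the same length. The 5-base TGACG core, searched on both strands and contained in that palindrome, was present in the promoters of Pck1, Slc37a4 and Ppargc1a and in 21.2% of all. TTACGTAA, a letter string of the G6pc1 promoter chosen after its sequence was read, was in 0.12%. The FOXO-type string GTAAACA, both strands, occurred in none of the 9 promoters that matched 8 of these genes, and in 3.78% of all. A match of letters describes the sequence and is no evidence of binding.

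The mean log2 intensity of 4 measured hepatocyte markers lay between 16.30 and 16.60 on every array. With phenformin 0 of them were called at day 3, at day 14 or on average, against 1.15%, 0.321% and 3.16% of all genes. The median probe set of an array lay between 4.95 and 5.11 and the highest value at 19.93. Pck1 lay high on this scale, and Pck2 lay close to the median gene (5.86), where background signal can make a difference too small. Levels of different probe sets are not compared here.

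At day 3 none of the 9 genes passed, against 1.15% of all genes, although 3 had an unadjusted p under 0.05 (10.6% of all genes did). At day 14 again 0 of 9 passed, against 0.321% of all genes, and 3 had an unadjusted p under 0.05 (11.2% of all). Averaged over both days, Got1 was the 1 gene of 9 that passed, against 3.16% of all genes (1.55% higher and 1.61% lower). The median log2 change of the 9 genes was -0.04 at day 3, 0.20 at day 14 and -0.04 on average, with all genes at 0.007, 0.000 and 0.003.

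**Figure D1:**
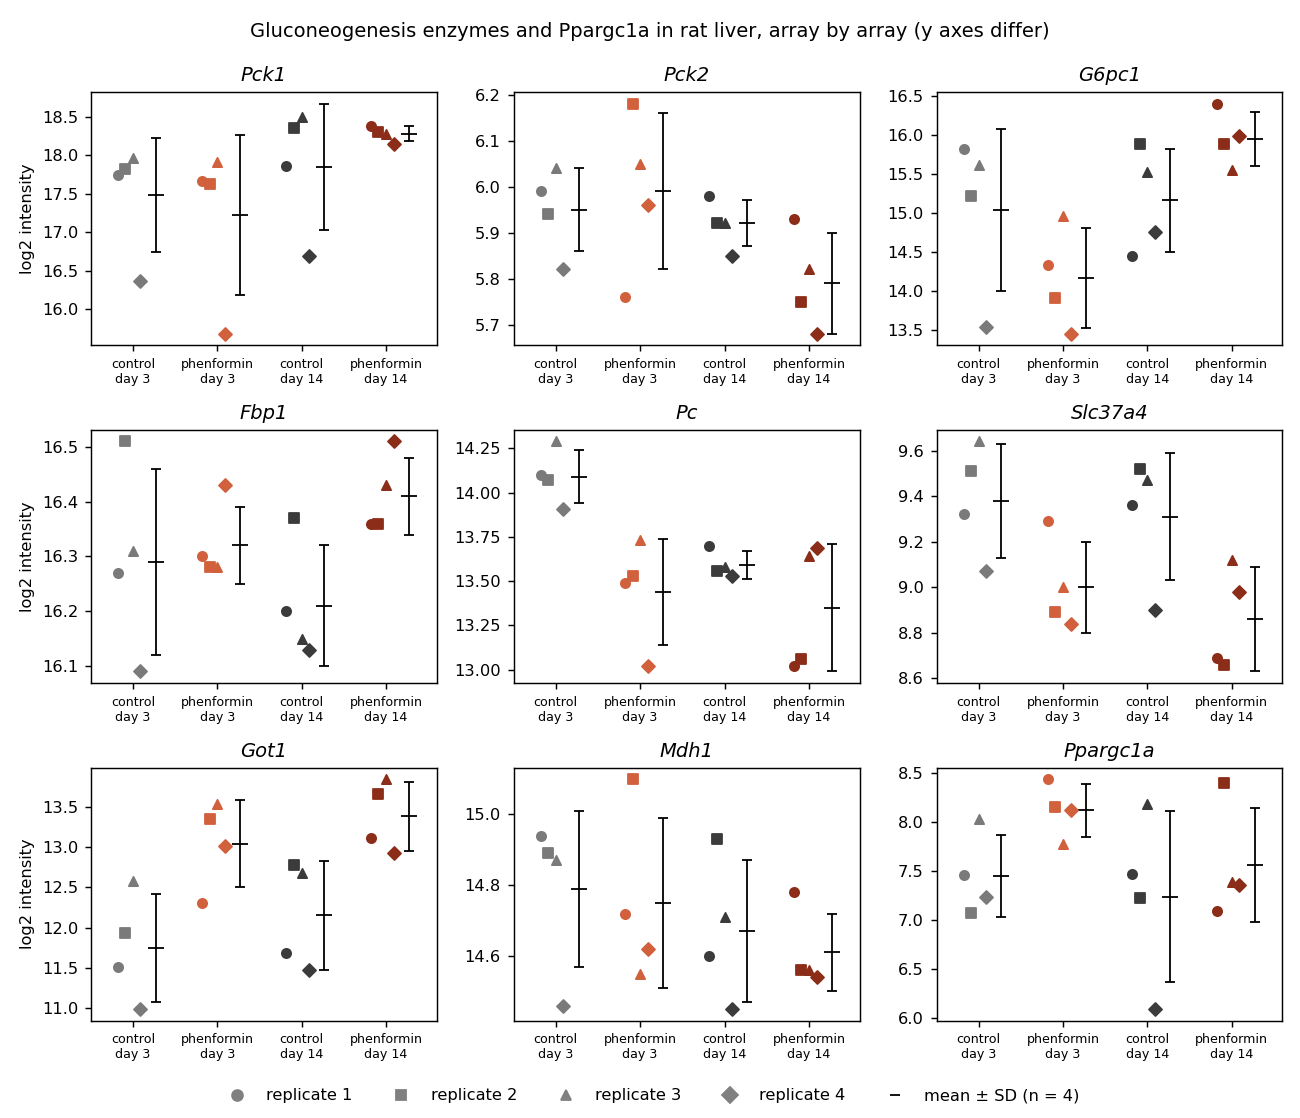
Log2 intensity of each of the 9 genes (y axis, scaled separately per gene) in the 4 groups (x axis). Marker shapes are replicate numbers and bars are mean ± SD of 4 arrays. The mean of Got1 was higher in treated than in control livers at both days, with groups that overlapped at day 3 and neither day past the threshold. Replicate 4 gave the lowest Pck1 value of each group.

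Got1 encodes the cytosolic aspartate aminotransferase, which turns aspartate leaving the mitochondria back into oxaloacetate. In replicate order its log2 intensity was 11.51, 11.93, 12.58 and 10.99 in control livers at day 3 and 12.30, 13.34, 13.53 and 13.01 in treated livers. At day 14 it was 11.68, 12.78, 12.68 and 11.47 in control and 13.11, 13.65, 13.84 and 12.92 in treated livers. All 8 treated livers lay above the mean of the control livers of their day, with groups that overlapped at day 3 and did not at day 14. The share of all genes with such a count above or below the control mean was not determined, here or for the genes below. Groups without overlap were found for 5.22% of all genes at day 14 (2.79% with treated livers higher, 2.44% lower). The change was 2.45-fold (1.41 to 4.25) at day 3 and 2.34-fold (1.35 to 4.07) at day 14, without passing over all genes (limma adjusted p = 0.146 and 0.188). The mean over both days rose 2.39-fold (1.62 to 3.54; limma adjusted p = 0.0182), with a two-sided exact permutation p of 0.00163 from the 4900 arrangements of labels within days. The call held when any 1 of the 16 arrays was left out. Without the fourth replicate of every group, an alternative chosen after seeing the data, the log2 change was 1.10 and the call was lost (adjusted p = 0.0675). Its change at day 14 exceeded its day-3 change by -0.06 on the log2 scale (-1.19 to 1.06).

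Markers of pericentral hepatocytes, the cells around the central vein, moved with the same treatment averaged over both days. Of 7, 3 rose (Cyp2e1, Oat and Slc1a2, 1.5-, 1.99- and 1.99-fold) and 0 fell. Of all genes, 1.55% rose and 1.61% fell on average over both days, which is the share for each average count of markers here. The mean of the 7 lay between 10.84 and 11.44 in control arrays and between 11.37 and 12.10 in treated arrays. Of 7 periportal markers, which label the zone known for gluconeogenesis, 2 rose (Gls2 1.67-fold and Hal 1.46-fold) and 0 fell. Their mean lay between 13.52 and 14.36 in control and between 13.97 and 14.78 in treated arrays. Single markers of other liver cells were called as well. Of 4 cholangiocyte markers Epcam rose on average (1.44-fold, 1.18 to 1.76, limma adjusted p = 0.0483). It was the 1 of 4 with a positive change, Krt19 stood at -0.34, and the list's median log2 change was -0.10. The list's mean lay between 6.61 and 6.84 in control and between 6.53 and 6.96 in treated arrays. Of 4 stellate cell markers Reln fell on average (1.33-fold, 1.17 to 1.51, limma adjusted p = 0.0172). The median log2 change of that list was -0.07, with 1 of 4 positive. Its list means were 9.28 to 9.80 in control and 9.26 to 9.61 in treated arrays. Of 4 endothelial markers Stab2 fell at day 3 (1.47-fold, 1.22 to 1.77, limma adjusted p = 0.0412), as did 0.901% of all genes. Stab2 did not pass at day 14 (-0.07, limma adjusted p = 0.901) or on average (-0.31, limma adjusted p = 0.0673). Pecam1 had the opposite sign at day 3 (0.23), and the list's median at that day was -0.28. The list means at day 3 were 10.76 to 11.08 in control and 10.69 to 10.83 in treated arrays. Of 4 Kupffer cell, 2 lymphocyte, 3 adipocyte and 3 skeletal muscle markers 0 were called at either day or on average. Of all genes 1.15% were called at day 3, 0.321% at day 14 and 3.16% on average. The part of all these markers in the Got1 result was not tested, and in bulk liver a change in the number of cells of a type and a change in RNA per cell cannot be told apart.

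The partner enzyme of the shuttle, the cytosolic malate dehydrogenase Mdh1, did not pass at either day (limma adjusted p = 0.96 and 0.922). Its values ran from 14.46 to 14.94 in control and 14.55 to 15.10 in treated livers at day 3, and from 14.45 to 14.93 and 14.54 to 14.78 at day 14. The average fold was 0.963 (0.835 to 1.11), an interval that lies below that of Got1. The mitochondrial isozymes Got2 and Mdh2 had average folds of 0.995 (0.924 to 1.07) and 0.880 (0.770 to 1.01), also without passing (limma adjusted p = 0.972 and 0.334).

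Pc makes the oxaloacetate with which the path begins. Its values at day 3 were 14.10, 14.07, 14.29 and 13.91 in control and 13.49, 13.53, 13.73 and 13.02 in treated livers. Every treated liver was below every control liver, as was the case for 4.17% of all genes (7.68% had no overlap in either direction, 3.51% with treated livers higher). The day-3 difference was -0.65 ± 0.17 (log2, ± SE; -1.0 to -0.30) and did not pass (limma adjusted p = 0.0875; two-sided exact permutation p = 0.0286, the smallest that 4 against 4 can give). At day 14 control livers read 13.70, 13.56, 13.58 and 13.53 and treated livers 13.02, 13.06, 13.64 and 13.69. Treated replicates 1 and 2 were low and replicates 3 and 4 lay within the control range, and the difference was -0.24 (-0.60 to 0.11; limma adjusted p = 0.653). Control livers of day 14 stood below all control livers of day 3, with a time difference of -0.50 (-0.85 to -0.15; limma adjusted p = 0.407). In this comparison of control livers 0.403% of all genes were called (0.0498% higher at day 14), and 7.15% had an unadjusted p under 0.05. Groups without overlap were found for 4.5% of genes, 2.96% lower and 1.54% higher at day 14. The control livers of day 3 were thus the highest group for Pc. The mean over both days was -0.45 (-0.70 to -0.20) and just missed the threshold (limma adjusted p = 0.0517; two-sided exact permutation p = 0.00653), with 6 of 8 treated livers below their control mean.

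Slc37a4 carries glucose-6-phosphate into the endoplasmic reticulum for G6pc1. At day 3 it read 9.32, 9.51, 9.64 and 9.07 in control and 9.29, 8.89, 9.0 and 8.84 in treated livers. At day 14 it read 9.36, 9.52, 9.47 and 8.90 in control and 8.69, 8.66, 9.12 and 8.98 in treated livers. All 8 treated livers were below the mean of their controls, and the groups overlapped at both days through control replicate 4, which was the lowest control each time. The differences were -0.38 (-0.72 to -0.04) and -0.45 (-0.79 to -0.11), with a mean over both days of -0.42 (-0.66 to -0.17). None passed (limma adjusted p = 0.396, 0.282 and 0.062; two-sided exact permutation p for the mean 0.00653). Without the fourth replicates the mean was -0.53 (-0.76 to -0.30) and passed (limma adjusted p = 0.0295), and so did Pc at -0.47 (-0.71 to -0.24; limma adjusted p = 0.0487).

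**Figure D2:**
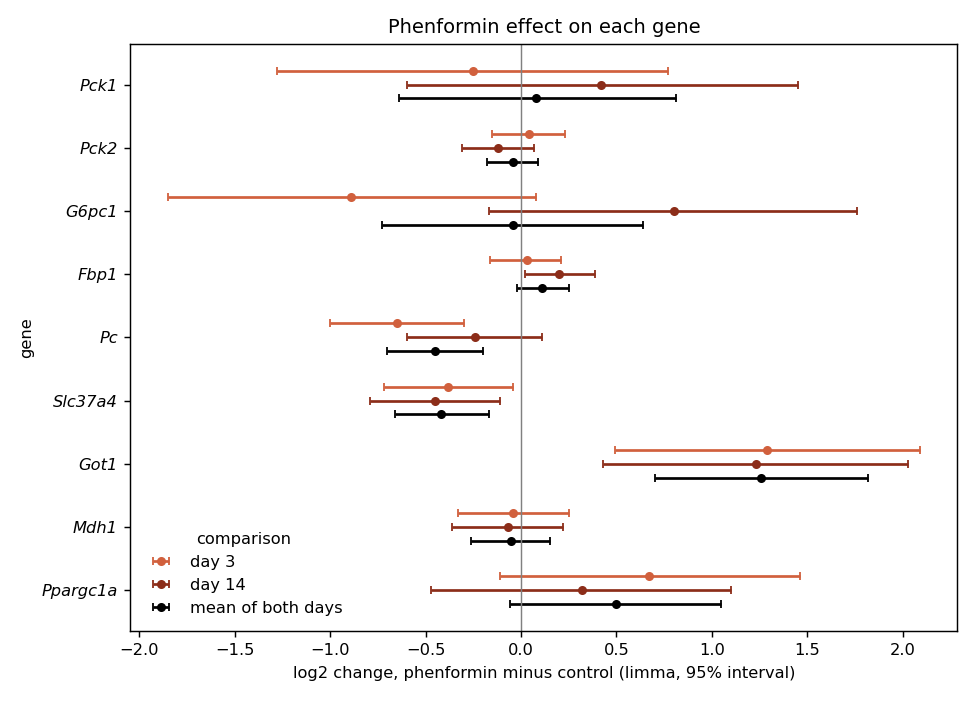
Log2 change with phenformin (x axis, limma estimate and 95% interval) of each gene (y axis) at day 3, at day 14 and as the mean of both days. The mean of Got1, 1.26 (0.70 to 1.82), is the 1 change that passed, and the intervals of Pck1 and G6pc1 are the widest.

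Pck1, the cytosolic PEPCK and a classic measure of gluconeogenic drive, differed more between animals than with the drug. At day 3 its values were 17.74, 17.82, 17.96 and 16.37 in control and 17.67, 17.63, 17.91 and 15.68 in treated livers. At day 14 they were 17.86, 18.36, 18.50 and 16.69 in control and 18.38, 18.30, 18.28 and 18.14 in treated livers. The lowest liver of each group was replicate 4, by a wide margin in 3 groups and by little in treated livers of day 14, where all 4 lay together. From the lowest to the highest animal Pck1 ranged 3.01-fold in control and 4.7-fold in treated livers at day 3, and 3.50-fold and 1.18-fold at day 14. Of all 22093 genes, 0.742% were lowest in replicate 4 of all 4 groups. The groups' SDs were 0.74, 1.04, 0.82 and 0.10, and the pooled SD within groups of 0.76 was above that of 99.4% of genes (the median gene had 0.18). Without the fourth replicates the pooled SD was 0.19, above that of 60.9% of genes.

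With this spread the phenformin difference of Pck1 was -0.25 (-1.28 to 0.77) at day 3 and 0.42 (-0.60 to 1.45) at day 14, neither past the threshold (limma adjusted p = 0.935 and 0.832). A single array turned the sign at day 3: leaving out treated replicate 4 gave 0.26, the 1 of 27 alternative fits with a turned sign. Without all the fourth replicates the differences were -0.10 (-0.43 to 0.22) and 0.08 (-0.25 to 0.41), with 3 arrays per group. The full intervals hold folds from 0.413 to 1.71 at day 3 and from 0.660 to 2.72 at day 14, so changes within these ranges are not excluded.

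G6pc1, the catalytic subunit of glucose-6-phosphatase, spread nearly as much as Pck1. At day 3 it read 15.82, 15.22, 15.61 and 13.53 in control and 14.33, 13.91, 14.96 and 13.45 in treated livers. At day 14 it read 14.45, 15.88, 15.53 and 14.75 in control and 16.40, 15.88, 15.55 and 15.98 in treated livers. Apart from control replicate 4, the control livers of day 3 lay above all treated livers of that day. At day 14 the treated livers occupied the upper end of the control range and went past it in 2 animals. The range from lowest to highest animal was 4.89-fold and 2.85-fold in control and treated livers at day 3, and 2.69-fold and 1.81-fold at day 14. The SDs were 1.04, 0.64, 0.66 and 0.35, and the pooled SD of 0.72 was above that of 99.2% of genes. Without the fourth replicates it was 0.53, above that of 97.6%.

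All 4 treated livers lay below the control mean of G6pc1 at day 3 and all 4 above it at day 14. The difference was -0.89 (-1.85 to 0.08) at day 3 and 0.80 (-0.17 to 1.76) at day 14 (limma adjusted p = 0.527 and 0.564). Its change at day 14 exceeded its day-3 change by 1.68 (0.31 to 3.05) with an unadjusted limma p of 0.0192 and did not pass over all genes (adjusted p = 0.841). In that comparison 0.00453% of genes were called and 4.68% had an unadjusted p under 0.05.

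Treated livers of day 14 and day 3 were also set against each other. G6pc1 stood at 15.95 ± 0.35 and 14.16 ± 0.64, a difference of 1.79 (0.83 to 2.76), and Pck1 at 18.28 ± 0.10 and 17.22 ± 1.04, a difference of 1.05 (0.03 to 2.07). For both genes every treated liver of day 14 was above every treated liver of day 3, a pattern of 2.1% of all genes. Neither passed (limma adjusted p = 0.331 and 0.640), and 0.0% of all genes did in this comparison, where 7.71% had an unadjusted p under 0.05. In control livers the same time difference was 0.11 (-0.86 to 1.08) for G6pc1 and 0.38 (-0.65 to 1.40) for Pck1. These comparisons use the same arrays as those of the drug.

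Pck1 and G6pc1 varied together from animal to animal. Their deviations from the group means gave a Pearson r of 0.76 and a Spearman rho of 0.79 over 16 arrays (permutation within groups, adjusted p = 0.0183 and 0.0045 over 3 pairs of genes; unadjusted p = 0.0061 and 0.0015). Leaving out the 2 arrays farthest from the median of Pck1, replicate 4 of treated livers at day 3 and of control livers at day 14, gave r = 0.83. Without all the fourth replicates r was 0.77 over 12 arrays, where the permutation no longer passed (adjusted p = 0.156). Ppargc1a deviated with Pck1 at r = 0.43 and rho = 0.34 (permutation adjusted p = 0.184 and 0.33; r = 0.26 without the 2 farthest arrays). With G6pc1 it gave r = 0.16 and rho = 0.03 (permutation adjusted p = 0.576 and 0.92; r = 0.13 without the 2 farthest arrays). Over all pairs of the 9 genes, 33 of 36 had r above 0, with a median of 0.38, as a description.

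**Figure D3:**
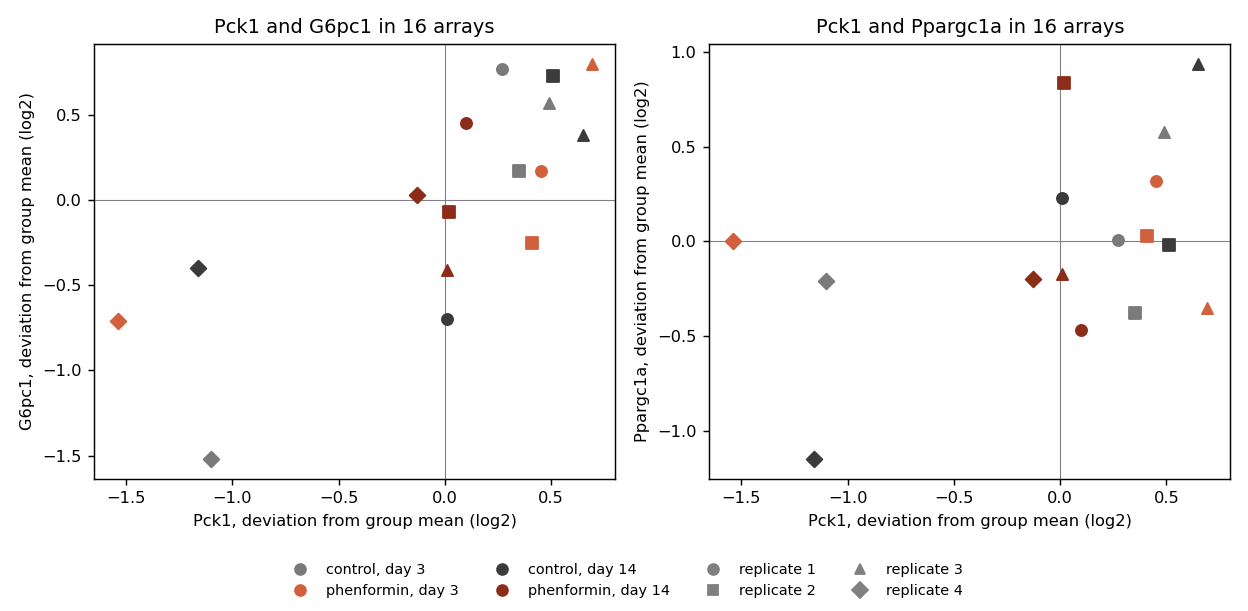
Deviation of each array from its group mean (log2) for Pck1 (x axis) against G6pc1 and against Ppargc1a (y axes). Colours are groups and shapes are replicate numbers. Replicate 4 of 3 groups lies at the low end of Pck1 (-1.10, -1.54 and -1.16), and for G6pc1 these arrays lie low too (-1.52, -0.71 and -0.40).

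Igfbp1, a secreted binding protein that insulin represses through FOXO1, was looked at in the same arrays after its values were seen. Replicate 4 was its lowest array in all 4 groups, at 12.06 (control, day 3), 13.25 (treated, day 3), 8.88 (control, day 14) and 13.40 (treated, day 14), against group means of 14.76, 14.21, 13.20 and 14.21. Its part in the Pck1 spread was not tested. The array weights that limma estimated for the fourth replicates were 1.30, 0.651, 0.643 and 0.913 in the same order, and those of the others ran from 0.659 to 1.76. The weights 0.643 (control, day 14) and 0.651 (treated, day 3) were the lowest of all arrays. The same arrays lay farthest from the median of Pck1, and the part of array quality in its spread was not tested.

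Ppargc1a encodes PGC-1alpha, a coactivator of Pck1 and G6pc1 transcription that glucagon induces. At day 3 it read 7.46, 7.07, 8.03 and 7.24 in control and 8.44, 8.16, 7.78 and 8.12 in treated livers. All treated livers were above the control mean, and 1 control liver, replicate 3, overlapped them. At day 14 it read 7.47, 7.23, 8.19 and 6.09 in control and 7.09, 8.40, 7.39 and 7.36 in treated livers, and the groups overlapped throughout. The folds were 1.60 (0.928 to 2.75) and 1.25 (0.724 to 2.14), and 1.41 (0.961 to 2.07) on average, none past the threshold (limma adjusted p = 0.567, 0.836 and 0.378). Without control replicate 4 of day 14 the log2 change at that day was -0.07, so that array set its sign. The pooled SD of 0.58 was above that of 98.3% of genes.

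The remaining enzymes, Fbp1 and Pck2, spread less between animals than the median gene. Fbp1, which removes the phosphate of fructose-1,6-bisphosphate, ran from 16.09 to 16.51 in control and 16.28 to 16.43 in treated livers at day 3, and from 16.13 to 16.37 and 16.36 to 16.51 at day 14. Its fold was 1.02 (0.896 to 1.16) at day 3 and 1.15 (1.01 to 1.31) at day 14 (limma adjusted p = 0.961 and 0.401). Pck2, the mitochondrial PEPCK, ran from 5.82 to 6.04 and 5.76 to 6.18 at day 3 and from 5.85 to 5.98 and 5.68 to 5.93 at day 14, control first. Its folds were 1.03 (0.901 to 1.17) and 0.918 (0.805 to 1.05), with background as a limit at this level (limma adjusted p = 0.944 and 0.682). Pooled SDs were 0.11 for Fbp1 and 0.12 for Pck2, against 0.18 for the median gene. Those of Mdh1, Slc37a4 and Pc were 0.20, 0.24 and 0.25, above those of 60.2%, 72.4% and 74.7% of genes, and Got1 had 0.59.

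The rest of the pathway and its regulators were followed in 6 lists, with 53 measured genes in all. At day 3, 0 of 53 passed, against 1.15% of all genes. At day 14, 1 fell (1.89% of the lists), against 0.321% of all genes called and 0.177% called lower. Averaged over both days 1 rose and 4 fell, which is 9.43% of the lists against 3.16% of all genes. The fall at day 14 was that of Pklr, the liver pyruvate kinase that works against gluconeogenesis (4.36-fold, 2.67 to 7.14; limma adjusted p = 0.0115). It belongs to 4 measured opposing glycolytic enzymes, whose median log2 change was -0.45 at day 3 and -0.90 at day 14. On average Pklr fell 3.05-fold (2.15 to 4.32) and Gckr 1.47-fold (1.26 to 1.71; limma adjusted p = 0.00242 and 0.00876), while Pfkfb1 stood at -0.80 ± 0.22 and did not pass (adjusted p = 0.065).

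Among 16 genes of carbon entry and carriers, 1 rose and 1 fell on average over both days, against 1.55% and 1.61% of all genes. Gk, the kinase that brings glycerol into the path, rose 1.63-fold (1.35 to 1.98; limma adjusted p = 0.0089), and Gpd1, the cytosolic glycerol-3-phosphate dehydrogenase, fell 1.45-fold (1.21 to 1.74; limma adjusted p = 0.03). Slc25a12, a mitochondrial aspartate and glutamate exchanger, stood at -0.30 ± 0.08 (limma adjusted p = 0.0539), and its liver counterpart Slc25a13 at 0.11 ± 0.10. Sds, serine dehydratase, had 1.84 ± 0.68 at day 3 and 1.01 ± 0.68 at day 14. Of 6 measured reversible steps shared with glycolysis, Pgk1, phosphoglycerate kinase, fell 1.31-fold on average (1.16 to 1.47; limma adjusted p = 0.0196). Pgam1, phosphoglycerate mutase, did not pass at day 3 (-0.24, adjusted p = 0.211) or day 14 (-0.09, adjusted p = 0.734), and the list's median was -0.15 at day 3 and -0.10 at day 14.

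Of 16 regulators 0 passed at day 3, at day 14 or on average, against 1.15%, 0.321% and 3.16% of all genes. At day 3 the smallest p belonged to Cebpb, a transcription factor that acts on the Pck1 promoter (-0.57 ± 0.15, limma adjusted p = 0.0969), and Ppargc1b, the relative of Ppargc1a (0.30 ± 0.13, adjusted p = 0.421). At day 14 they belonged to Foxo1, the insulin-responsive factor (-0.53 ± 0.19, limma adjusted p = 0.273), and Esrra, a nuclear receptor that PGC-1alpha coactivates (-0.17 ± 0.09, adjusted p = 0.514). Of 8 other genes that respond to PGC-1alpha, FOXO1 or CREB, 0 passed in these comparisons, against the same shares of all genes. Pdk4, a kinase that inhibits pyruvate dehydrogenase, stood at 1.00 ± 0.52 at day 3, and Alas1 of haem synthesis at -0.46 ± 0.18. Cpt1a, the gate of mitochondrial fatty acid entry, stood at 2.57 ± 0.81 at day 14 (limma adjusted p = 0.209), and the insulin receptor substrate gene Irs2 at -0.78 ± 0.36. The isozymes Fbp2, G6pc2 and G6pc3 had means between 3.80 and 6.26, and G6pc2 at day 14 (0.45 ± 0.12) and Fbp2 at day 3 (-0.14 ± 0.09) did not pass (limma adjusted p = 0.134 and 0.63).

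**Figure D4:**
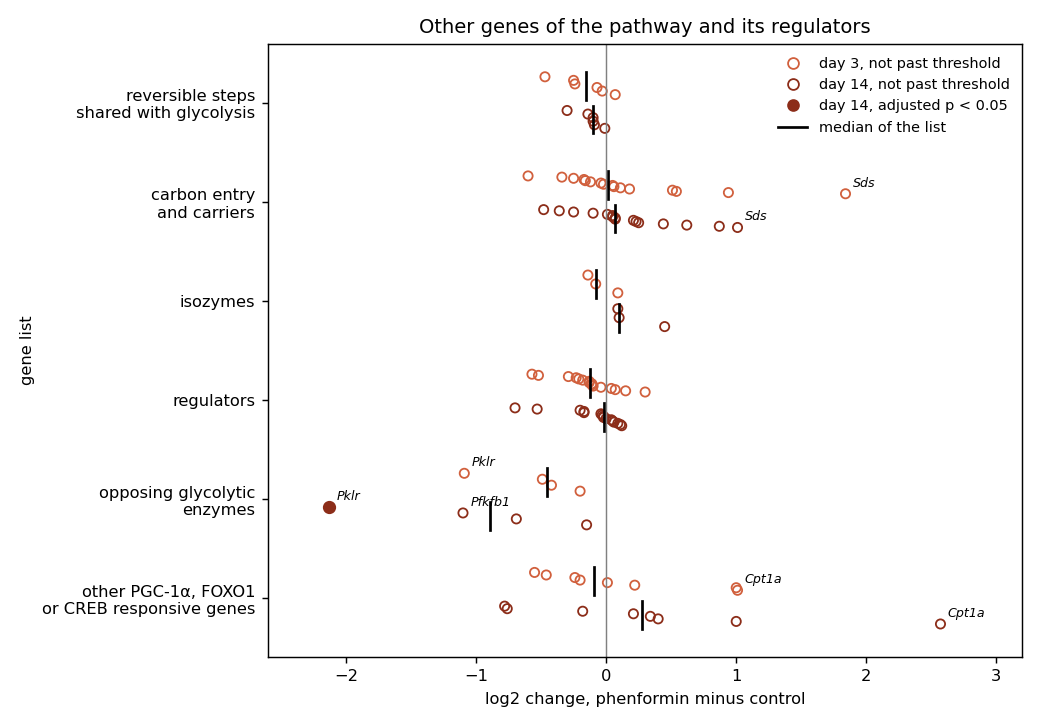
Log2 change with phenformin (x axis) of the 53 other genes in 6 lists (y axis), with day 3 above day 14 in each list. Open circles did not pass, the filled circle is Pklr at day 14, and black lines are list medians, -0.45 and -0.90 for the opposing glycolytic enzymes.

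The genes whose levels followed each of 3 members most closely over the 16 arrays were sought among 11045 other genes above the median gene, as a description. For Pck1 these were Mfsd2a, a lysophospholipid transporter that fasting is known to induce in mouse liver, Kdm8 and Wdr45 (r = 0.85, 0.85 and 0.82, and 0.89, 0.85 and 0.81 for deviations from group means). For G6pc1 they were RGD1563888, Pck1 and Zfp41 (r = 0.88, 0.80 and 0.76, and 0.86, 0.76 and 0.70 for deviations). For Ppargc1a they were Dap, Fam234b and Fdx2 (r = 0.83 each, and 0.83, 0.78 and 0.80 for deviations). The arrays share groups and normalization, so part of such likeness can come from either.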

How the data were processed

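Liver RNA of 16 rats was hybridised to 1-colour Affymetrix whole-transcript arrays. The deposited table gives 1 intensity per probe set and array. Per the submitters' processing notes these intensity values were made with RMA, which corrects background, normalizes between arrays and summarises probes. They are on a linear scale, although RMA gives log2 values, and the program, version and any later rescaling are not named by the sources used here, so folds are ratios of deposited values.

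Values were turned into log2 with no pseudocount. Of 68842 probe sets, 23446 had 1 gene symbol in the platform annotation and 505 several. The probe set with the highest mean over 16 arrays stood for a gene (22093 genes). Groups and replicate numbers came from the titles. A model of 4 group means was fitted to all genes and arrays in R 4.3.3 using limma 3.58.1, with 12 residual degrees of freedom before and 15.15 after moderation, and checked on simulated data. The spread is taken as equal in the groups, which makes intervals too narrow for a group that spread more. Adjusted p-values are Benjamini-Hochberg over all genes. Exact permutation tests used all 70 splits of 4 against 4 arrays, where 0.0286 is the smallest p possible, or 4900 within days. Co-variation was tested with 100000 permutations within groups. Array number limits the precision, and detection calls were not used.

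Genes, lists and tests were chosen with earlier results of these data known. Named genes were all 9 members, list genes that passed, up to 2 per list with the smallest p at each day, and the 3 genes most like Pck1, G6pc1 and Ppargc1a. Names beyond this (Got2, Mdh2, Slc25a13, Sds, Pfkfb1, Igfbp1, the markers and genes named for context) were chosen after their values were seen. Alternatives were an intensity trend with robust prior, a filter at the median gene, quantile normalization, centring, each day alone, array weights, log2(value + 16), the mean of all probe sets, leaving out each array, and replicate blocks.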

Additional observations from a re-analysis of the deposited data

Results flagged for a closer look

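Among 36 sets of 4 values (9 genes in 4 groups), 5 held an animal whose gap to its nearest neighbour took up more of the range than Dixon's 95% critical value allows, where chance gives about 1 in 20. Pck1 was low in replicate 4 of control livers at day 3 (16.37, next 17.74) and of treated livers at day 3 (15.68, next 17.63). Mdh1 was low in that same control liver (14.46, next 14.87), and high in replicate 1 of treated livers at day 14 (14.78, next 14.56). Fbp1 was high in replicate 4 of treated livers at day 3 (16.43, next 16.30). The Pck1 animals have values of other genes beside them above, and the source of the gap was not tested.

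The phenformin difference of G6pc1 had opposite signs at the 2 days, with all treated livers below the control mean at day 3 and above it at day 14. The difference between the effects, 1.68 on the log2 scale, had an adjusted p of 0.841 in the limma fit over all genes, so it did not pass.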

How the results depend on the processing

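Of 1404 refits of the 9 genes, 1337 kept direction and side of the threshold, 16 newly passed, 1 no longer passed and 50 turned sign without passing in either fit. Newly passing were Pc (6 fits) and Slc37a4 (6 fits), both on average over days, and Got1 at single days with a block. Leaving out single arrays turned signs within these log2 ranges. At day 3 they were -0.62 to 0.26 for Pck1, -0.023 to 0.12 for Pck2, -0.041 to 0.10 for Fbp1 and -0.16 to 0.022 for Mdh1. At day 14 they were -0.14 to 0.02 for Mdh1 and -0.07 to 0.63 for Ppargc1a. On average they were -0.11 to 0.34 for Pck1 and -0.30 to 0.09 for G6pc1. For the difference of effects they were -0.20 to 0.039 for Slc37a4, -0.34 to 0.19 for Got1 and -0.10 to 0.09 for Mdh1. Between times they were -0.39 to 0.37 for G6pc1, -0.18 to 0.06 for Slc37a4 and -0.52 to 0.18 for Ppargc1a in control livers, and -0.23 to 0.019 for Pc in treated livers. Quantile normalization gave -0.0022 for Fbp1 at day 3. Without all the fourth replicates the turned values were -0.08 for Fbp1 at day 3, -0.00053 for Ppargc1a at day 14, 0.11 for the Got1 difference of effects, -0.013 for Pck1 on average, and -0.26 for G6pc1 and 0.11 for Ppargc1a in control livers over time. The causes were not tested.

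Counts of all genes called moved by over 1.5 times in these cases. At day 3 (254) array weights gave 405 and leaving out arrays 102 (control replicate 1) to 277. At day 14 (71) the filter gave 174, that day alone 23, log2(value + 16) 131 and leaving out arrays 30 (treated replicate 3 or 4) to 132 (control replicate 4). For the difference of effects (1) the filter gave 0, array weights 2 and leaving out arrays 0 to 10. For the mean of both days (699) leaving out arrays gave 421 to 817. For control livers over time (89) they were 50 with the filter, 149 with array weights and 0 (replicate 1 of day 3 or 2 of day 14) to 110 with arrays left out. For treated livers over time (0) they were 4 with the filter and 0 to 2 with arrays left out. Without the fourth replicates the counts were 121 at day 3, 33 at day 14, 0 for the difference of effects and 2 for control livers over time, the SD of Pck1 was 0.19, r of Pck1 and G6pc1 was 0.77 (adjusted p = 0.156) and r of G6pc1 and Ppargc1a was -0.11.

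Same-numbered arrays of a day deviated together with r between -0.167 and 0.259, over 0.1 in 4 of 8 pairs. Among the 4 arrays of the other group of its day, 8 of 16 arrays correlated best with their own number. These values do not settle whether the numbers are pairs. The numbers were not taken as pairs because the labels state no pairing. A replicate block within a day gave 167 calls at day 3 and 0 for the difference of effects, and a block across days, added after the data were seen, 0 and, for control livers over time, 47. With the block within a day Got1 passed at day 3 (adjusted p = 0.0211) and day 14 (0.0455), and with the block across days likewise (0.00785 and 0.017).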
